A study of Mus musculus with 12 samples.

Results

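The Frizzled genes Fzd1 to Fzd10 encode the 10 Frizzled receptors of the mouse, and their transcripts were followed in the yolk sac, the membrane that supplies the early embryo and makes its first blood and vessels. The members were all array probe sets annotated to one of these genes alone. They numbered 26, for 10 of the 18193 genes tested, and each gene was read from its probe set with the highest mean over the 12 arrays, with the other probe sets beside it. Only Fzd9 had a single probe set.

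The arrays formed 4 groups of 3: Norrin and wild type yolk sacs at embryonic day 10.5 (E10.5), and Norrin and wild type yolk sacs at E8.5. Norrin yolk sacs came from Z/Norrin mice, which over-express Norrin conditionally and outside its usual places. All groups were of mixed sex and of mixed C57Bl6/129 background, and each array held the pooled yolk sacs of 3 to 5 embryos, so the replicates were separate pools. The sources used here name neither the Cre driver nor the cells in which it acts, and do not say whether wild type embryos carried any transgene. The study asked what Norrin signalling through Frizzled4 regulates in this tissue, and the comparison here asked whether the receptors themselves differed between Norrin and wild type.

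Frizzled proteins are membrane proteins of the class F receptors and hold their ligand in a cysteine-rich domain outside the cell. Most bind Wnt proteins together with the coreceptors Lrp5 or Lrp6, and the signal passes through Dishevelled to beta-catenin or to the planar polarity and calcium routes. Norrin is no Wnt, but binds Fzd4 with Lrp5 or Lrp6 and the tetraspanin Tspan12, a route best known from retinal vessels. By sequence the receptors fall into the subgroups Fzd1, Fzd2 and Fzd7; Fzd3 and Fzd6; Fzd5 and Fzd8; Fzd9 and Fzd10; and Fzd4.

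Levels are the deposited log2 values, on which a difference of 1 is a doubling, and no gene's level is set against another's because probes differ in brightness. Differences were tested with limma over all 12 arrays, and a gene is called where its p, adjusted by Benjamini-Hochberg over all genes, was under 0.05. The stages shared no identical value in 36 pairs of arrays, against 26 to 93 in the 30 pairs within a stage, so each appears to have been normalised in its own run and stage and run cannot be told apart. Arrays of a group correlated at r = 0.9754 to 0.9924. The tissue's own genes were bright: Afp averaged 14.67 in Norrin and 14.71 in wild type yolk sacs at E10.5, and Hbb-bh1, an embryonic globin, 13.94 in Norrin and 14.52 in wild type. The spike-in controls averaged 11.82 in Norrin and 11.85 in wild type replicate 3 at E8.5, above the 10.29 to 10.69 of the other E8.5 arrays. Ndp, the mouse gene for Norrin, averaged 4.49 in both groups at E10.5, and 4.54 in Norrin against 4.59 in wild type at E8.5, so its probe set did not register the over-expression. The sources used here do not say whether the probes match the transgene.

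At E10.5, Fzd2, Fzd6 and Fzd7 were higher in Norrin than in wild type yolk sacs, by 1.7-fold to 1.9-fold. These were 3 of the 10 Frizzled genes, all in the same direction, against 4.07% of all genes called in either direction and 1.85% called higher. The other 7 were not called, and Fzd4 was among them. The pools of the genotypes did not overlap for 6 of the 10 genes, with Fzd1, Fzd2, Fzd3, Fzd6 and Fzd7 higher in Norrin and Fzd5 lower, against 22.9% of all genes. The median difference over the 10 genes was 0.18, against -0.004 over all genes. At E8.5 limma called 0 of 10, against 0.077% of all genes. Only Fzd2 had an unadjusted p under 0.05 at that stage, as did 7.22% of all genes, and Fzd8 alone had pools that did not overlap, against 11.9%.

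**Figure D1:**
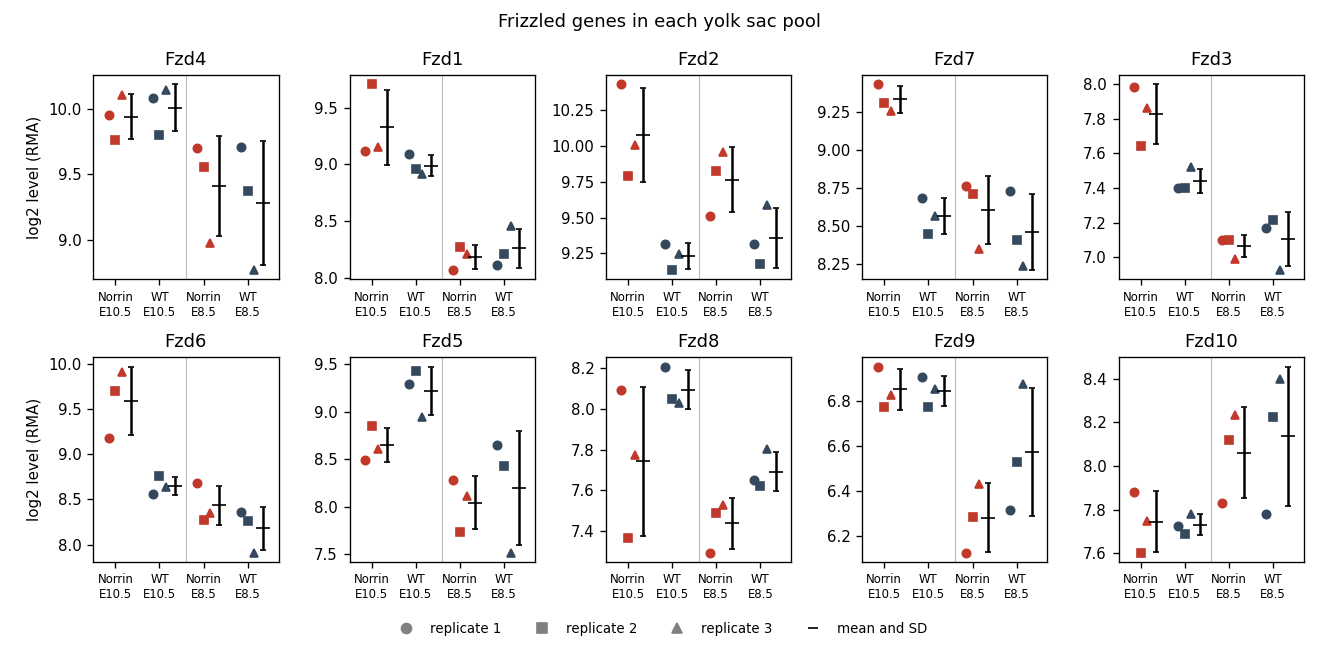
Log2 expression of each Frizzled gene (vertical axes) in the 3 pools of each group, with Norrin left of wild type at E10.5 and then at E8.5; points are pools, bars the group mean and whiskers its SD. At E10.5 the Norrin pools of Fzd2, Fzd6 and Fzd7 all lie above the wild type pools, while those of Fzd4 overlap with them.

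Fzd4, the receptor through which Norrin acts, lies on chromosome 7 at 89404366 to 89410110 in GRCm38.p6, the build of the RefSeq gene table used for all positions. Its 250 bases before the annotated start are shown because Fzd4 is the receptor named in the study. On the plus strand, chr7:89404116-89404365, RefSeq gives:
Fzd4: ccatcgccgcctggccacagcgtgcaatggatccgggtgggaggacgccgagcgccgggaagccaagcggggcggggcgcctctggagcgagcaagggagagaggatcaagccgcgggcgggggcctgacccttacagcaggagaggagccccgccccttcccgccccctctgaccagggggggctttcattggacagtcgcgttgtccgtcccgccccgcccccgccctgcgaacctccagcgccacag
This stretch was 72.8% G or C and held 25 CpG dinucleotides, against medians of 52.4% and 6 over 32851 RefSeq promoters. Those of Fzd5, Fzd9 and Fzd10 were each 76.4% G or C, with 32, 42 and 37 CpG. All bases are in lower case because neither CTTTGAT nor CTTTGTT, the TCF-type letters searched on both strands, occurred in it.

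Fzd4 (1419301_at) had log2 levels of 9.95, 9.76 and 10.10 in the Norrin pools at E10.5, against 10.08, 9.80 and 10.14 in the wild type pools. In both genotypes replicate 2 was the lowest and replicate 3 the highest, and the groups overlapped. The difference was -0.07 (SE 0.24, 95% interval -0.58 to 0.45, adjusted p = 0.973, limma). At E8.5 the pools had 9.70, 9.56 and 8.97 in Norrin and 9.70, 9.37 and 8.77 in wild type. Here replicate 3 was the lowest of its group in both genotypes, and again the groups overlapped. Those same arrays had the highest spike-in levels of the stage, whose part in the spread of Fzd4 was not tested. The difference was 0.13 (SE 0.24, 95% interval -0.39 to 0.64, adjusted p = 0.908). With the replicate block within each stage the intervals narrowed, to -0.26 to 0.12 at E10.5 and -0.07 to 0.32 at E8.5, and Fzd4 was again not called.

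A second Fzd4 probe set (1434756_at) varied less between pools. It read 9.40, 9.15 and 9.44 in Norrin and 9.36, 9.20 and 9.23 in wild type at E10.5, and its Norrin differences were 0.07 (SE 0.11) at E10.5 and 0.005 (SE 0.11) at E8.5. At E8.5 its replicate 3 was not apart from the other pools in either genotype, unlike that of the first probe set. The dim probe set of Fzd4 (1449416_at, mean 5.41) had differences of 0.20 at E10.5 and 0.30 at E8.5 (SE 0.28 each). None of the 3 probe sets of Fzd4 was called for Norrin at either stage with p-values adjusted over all 45037 probe sets.

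Fzd1, Fzd2 and Fzd7 are close relatives that pass Wnt signals to beta-catenin, and Fzd7 is known from pluripotent stem cells. Of this subgroup Fzd2 and Fzd7 rose with Norrin at E10.5 and Fzd1 was not called. The promoters of Fzd7 and Fzd1 are set side by side because Fzd7 was called and Fzd1 was not; the difference between them was not tested. Fzd7 lies on chromosome 1 at 59482147 to 59486955 and Fzd1 on chromosome 5 at 4753839 to 4758216. The stretches are chr1:59481897-59482146 on the plus strand and chr5:4758217-4758466 on the minus strand of GRCm38.p6, from RefSeq, and capitals mark the one match to the searched letters.
Fzd7: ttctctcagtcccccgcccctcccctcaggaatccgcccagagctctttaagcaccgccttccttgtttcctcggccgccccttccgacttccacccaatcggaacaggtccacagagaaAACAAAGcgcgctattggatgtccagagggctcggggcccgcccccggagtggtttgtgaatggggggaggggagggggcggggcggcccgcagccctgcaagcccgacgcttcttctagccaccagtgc
Fzd1: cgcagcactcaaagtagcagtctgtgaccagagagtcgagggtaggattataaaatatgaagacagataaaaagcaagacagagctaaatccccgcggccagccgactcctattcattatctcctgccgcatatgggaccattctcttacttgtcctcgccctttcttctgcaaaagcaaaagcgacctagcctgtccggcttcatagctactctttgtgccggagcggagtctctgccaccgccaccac
The Fzd7 stretch held AACAAAG, which is CTTTGTT on the other strand, beginning at position -130 from the start. CTTTGTT occurred on either strand in 5.03% of the 32851 promoters and CTTTGAT in 3.21%, and the 2 motifs share no match. Of the 6 Frizzled genes whose promoter was searched (Fzd1, Fzd4, Fzd5, Fzd7, Fzd9 and Fzd10), the Fzd7 stretch alone matched. The promoters of Fzd2, Fzd3, Fzd6 and Fzd8 were not searched. The match describes letters and not a site that is used. The Fzd7 stretch was 65.2% G or C with 17 CpG, and the Fzd1 stretch 51.2% with 12.

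Fzd7 (1450044_at) had log2 levels of 9.43, 9.31 and 9.26 in Norrin at E10.5, against 8.68, 8.45 and 8.56 in wild type. The Norrin pools lay close together and well above each wild type pool. The difference was 0.77 (SE 0.15, 95% interval 0.44 to 1.10), 1.70-fold, with an adjusted p of 0.0138 in limma. Its second probe set (1450043_at) gave 0.48 (SE 0.16), which was not called. At E8.5 Fzd7 had 8.76, 8.71 and 8.35 in Norrin against 8.73, 8.41 and 8.24 in wild type. The groups overlapped, and the difference of 0.15 (SE 0.15) was not called (adjusted p = 0.824).

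Fzd2 (1418532_at; chromosome 11, 102604431 to 102608058) had 10.43, 9.79 and 10.01 in Norrin at E10.5, against 9.32, 9.13 and 9.25 in wild type. The lowest Norrin pool was above the highest wild type pool, and Norrin replicate 1 was the highest of all. The difference was 0.84 (SE 0.18, 95% interval 0.46 to 1.23), 1.79-fold, with an adjusted p of 0.0191 in limma. Its other 2 probe sets also gave positive differences, of 0.69 and 0.61. At E8.5 Fzd2 had 9.51, 9.82 and 9.96 in Norrin and 9.32, 9.17 and 9.58 in wild type. Norrin was the higher in each of the 3 same-numbered pairs, yet the groups overlapped, and the difference of 0.41 (SE 0.18, unadjusted p = 0.0406) had an adjusted p of 0.678.

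Fzd1 (1437284_at) had 9.12, 9.71 and 9.16 in Norrin at E10.5, against 9.09, 8.96 and 8.92 in wild type. Norrin replicate 2 stood above the other pools, and the lowest Norrin pool was only just above the highest wild type pool. The difference was 0.34 (SE 0.16) with an adjusted p of 0.375, and that of the second probe set was 0.30 (SE 0.14). At E8.5 the difference was -0.07 (SE 0.16, adjusted p = 0.922).

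Fzd3 and Fzd6 are best known for planar polarity, the alignment of cells within a sheet: Fzd6 orients hair follicles and Fzd3 guides axons in the mouse. Fzd6 rose with Norrin at E10.5. Fzd6 (1417301_at; chromosome 15, 39006149 to 39038192) had 9.17, 9.69 and 9.90 in Norrin, against 8.56, 8.76 and 8.64 in wild type. The Norrin pools were spread out, but the lowest of them was above each wild type pool. The difference was 0.94 (SE 0.19, 95% interval 0.53 to 1.35), 1.92-fold, with an adjusted p of 0.0154 in limma. The probe sets of Fzd6 disagreed: one gave 0.65 (SE 0.18, adjusted p = 0.102 over all probe sets) and the other -0.05 (SE 0.16). At E8.5 Fzd6 averaged 8.44 ± 0.21 in Norrin and 8.18 ± 0.23 in wild type (SD, n = 3 each), and was not called.

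Fzd3 (1434788_at; chromosome 14, 65192441 to 65262463) had 7.98, 7.64 and 7.86 in Norrin at E10.5, against 7.40, 7.40 and 7.52 in wild type. The groups did not overlap, but the difference of 0.39 (SE 0.12) had an adjusted p of 0.125 in limma. With the replicate number as a block within each stage it was called, with an adjusted p of 0.0285. The Frizzled count at E10.5 was then 4 higher of 10, against 13.2% of all genes called under that fit and 6.39% called higher. The other 5 probe sets of Fzd3, all dimmer, had differences between -0.12 and 0.32, and none was called. At E8.5 Fzd3 averaged 7.06 ± 0.06 in Norrin and 7.10 ± 0.15 in wild type (SD, n = 3 each), a difference of -0.04.

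**Figure D2:**
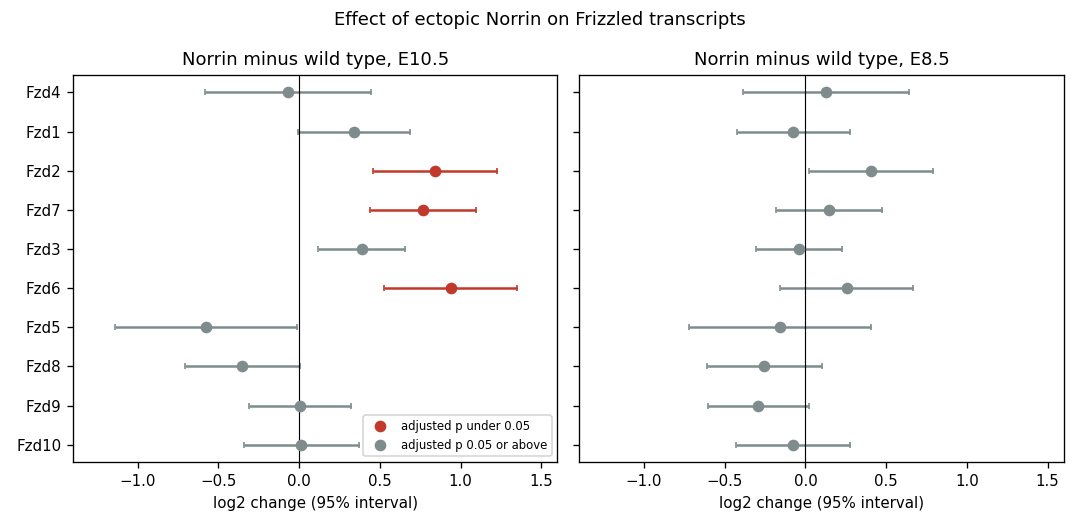
Norrin minus wild type log2 difference for each Frizzled gene, with its 95% interval from limma, at E10.5 (left) and E8.5 (right); red marks an adjusted p under 0.05. At E10.5 Fzd2, Fzd6 and Fzd7 lie at 0.84, 0.94 and 0.77 with intervals clear of 0, while at E8.5 no gene is marked.

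Fzd5 and Fzd8 form a further pair of relatives, and loss of Fzd5 in the mouse is known to impair yolk sac vessel growth. Fzd5 (1455604_at; chromosome 1, 64730558 to 64737750) had 8.49, 8.85 and 8.60 in Norrin at E10.5, against 9.29, 9.43 and 8.94 in wild type. Each Norrin pool was below each wild type pool, by a small margin for Norrin replicate 2 against wild type replicate 3. The difference was -0.58 (SE 0.26, 95% interval -1.14 to -0.01), with an adjusted p of 0.340. Its second probe set (1422937_at) gave -0.04 (SE 0.16) and so did not show that difference. At E8.5 the wild type pools of Fzd5 ranged between 7.52 and 8.66 and spanned the Norrin pools, at 7.73 to 8.28. The difference was -0.16 (SE 0.26).

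Fzd8, on chromosome 18, had 8.10, 7.36 and 7.77 in Norrin at E10.5, against 8.21, 8.05 and 8.03 in wild type. One Norrin pool lay within the wild type range and the other 2 below it. The difference was -0.35 (SE 0.16, adjusted p = 0.365), and the second, dim probe set gave -0.37 (SE 0.11, adjusted p = 0.121 over all probe sets). At E8.5 the pools had 7.29, 7.49 and 7.53 in Norrin and 7.65, 7.62 and 7.80 in wild type. These groups did not overlap, but the difference of -0.25 (SE 0.16) had an adjusted p of 0.741.

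Fzd9 and Fzd10, which lie apart on chromosome 5 and are best known from the nervous system and from limb and neural tube, were close to equal between the genotypes at E10.5. Fzd9 averaged 6.85 ± 0.09 in Norrin and 6.85 ± 0.07 in wild type, and Fzd10 7.74 ± 0.14 in Norrin and 7.73 ± 0.05 in wild type (SD, n = 3 each). Their differences were 0.01 each, with 95% intervals of -0.31 to 0.32 for Fzd9 and -0.34 to 0.37 for Fzd10. At E8.5 the difference of Fzd9 was -0.29 (SE 0.14, adjusted p = 0.707) and that of Fzd10 -0.08 (SE 0.16).

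**Figure D3:**
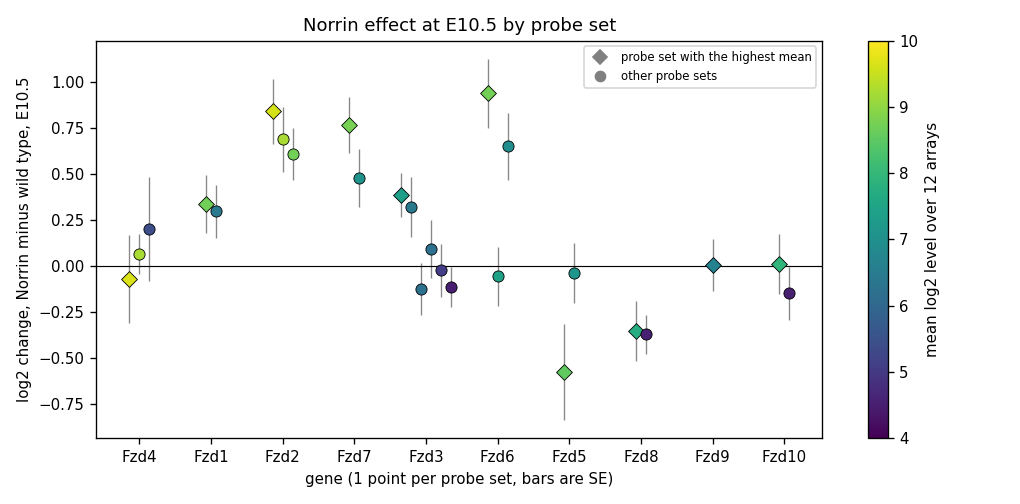
Norrin minus wild type log2 difference at E10.5 for each of the 26 Frizzled probe sets, with its SE, grouped by gene and coloured by mean log2 level. All 3 probe sets of Fzd2 lie between 0.61 and 0.84, whereas those of Fzd6 run from -0.05 to 0.94.

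Each of the calls of Fzd2, Fzd6 and Fzd7 at E10.5 was lost when certain single pools were left out. The call of Fzd7 was lost without wild type replicate 2 (adjusted p = 0.0603) or Norrin replicate 1 (0.0602). Fzd2 lost its call without wild type replicate 2 (0.0769) or 3 (0.0608), or Norrin replicate 1 (0.0721) or 3 (0.0605). Fzd6 lost it without wild type replicate 1 (0.0587) or 3 (0.0533), or Norrin replicate 2 (0.0531) or 3 (0.0804). In those fits the differences were 0.71 to 0.72 for Fzd7, 0.66 to 0.88 for Fzd2 and 0.78 to 0.93 for Fzd6. The number of Frizzled genes called lay between 1 and 3 when single pools were left out.

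The difference between the Norrin effects at E10.5 and at E8.5 was tested as an interaction. Limma called 0 of 10 Frizzled genes, against 0.0934% of all genes, and 3 of 10 had an unadjusted p under 0.05, against 7.01%. Those were Fzd7 with 0.62 (SE 0.21), Fzd6 with 0.68 (SE 0.27) and Fzd3 with 0.43 (SE 0.17), each with the larger effect at E10.5. With the replicate block within each stage Fzd7 was called (adjusted p = 0.0455), against 2.07% of all genes under that fit and 0.819% called higher. The intervals of the other genes, such as -0.92 to 0.53 for Fzd4, left their difference between stages unresolved.

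Between stages, Fzd1 was higher at E10.5 than at E8.5 in both genotypes. It averaged 9.33 ± 0.33 at E10.5 and 8.18 ± 0.11 at E8.5 in Norrin, and 8.99 ± 0.09 at E10.5 and 8.26 ± 0.17 at E8.5 in wild type (SD, n = 3 each). The differences were 1.15 (adjusted p = 0.000207) and 0.73 (adjusted p = 0.00435), and those of its second probe set were 1.59 in Norrin and 1.10 in wild type. Limma called 5 of 10 Frizzled genes higher at E10.5 in Norrin (Fzd1, Fzd3, Fzd6, Fzd7 and Fzd9), against 37.9% of all genes called and 28.2% called higher. In wild type it called 3 of 10 higher (Fzd1, Fzd4 and Fzd5), against 32.5% called and 25.4% called higher. The share in wild type is near that of all genes, and the one in Norrin is higher; the difference from all genes was not tested. The stage comparisons share no pools with each other, but both share pools with the Norrin comparisons.

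The median gene itself was higher at E10.5, by 0.15 in Norrin and 0.14 in wild type, and this depends on the scaling. Of all genes, 5133 were called higher and 1762 lower in Norrin as deposited, 2345 and 5943 with each array centred on its median, and 3061 and 3587 after quantile normalisation over the 12 arrays. In wild type the counts were 4619 higher and 1296 lower as deposited, 2340 and 4816 centred, and 2909 and 3373 after quantile normalisation. Fzd1 was called higher under all 3 scalings in both genotypes, with 0.79 and 1.01 in Norrin and 0.43 and 0.54 in wild type under the centred and quantile scalings. Fzd6 and Fzd3 were called higher in Norrin under all 3, with lowest values of 0.80 for Fzd6 and 0.40 for Fzd3. In wild type Fzd6 averaged 8.65 ± 0.10 at E10.5 and 8.18 ± 0.23 at E8.5 (SD, n = 3 each) and was not called under any of the 3. The probe sets of both genes disagreed on the stage difference in Norrin as deposited. The other Fzd6 probe sets gave 0.91 and -0.06, and the other Fzd3 probe sets lay between -0.05 and 0.76.

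For further members the stage result also turned on the scaling or on the probe set. Fzd2 was not called as deposited, with 0.31 in Norrin and -0.13 in wild type. One other probe set (1418534_at) gave 1.10 in Norrin and 0.68 in wild type, and the third gave 0.11 and -0.15. Fzd8 was not called either, with 0.31 in Norrin and 0.40 in wild type, while its dim probe set gave 0.56 and 0.81. Both 1418534_at and that dim probe set passed 0.05 with p adjusted over all probe sets (limma). Fzd4 was 0.73 higher at E10.5 in wild type (adjusted p = 0.0337), but 0.43 and not called with arrays centred (adjusted p = 0.206). After quantile normalisation it was called, at 0.64 (adjusted p = 0.0254), and its other probe sets gave 0.14 and 1.51. Its call was lost without wild type replicate 2 (adjusted p = 0.0635) or 3 (0.108) of E8.5, or without replicate 1 (0.0868) or 3 (0.101) of E10.5. Fzd5 was 1.02 higher in wild type (adjusted p = 0.0100), but 0.73 and not called with arrays centred (adjusted p = 0.059). After quantile normalisation it was called, at 0.88 (adjusted p = 0.0192). Its second probe set was 0.56 lower as deposited, with an adjusted p of 0.0198 over all probe sets. The mean of its probe sets gave 0.23 and was not called (adjusted p = 0.351), so the direction of Fzd5 between stages turned on the probe set. In Norrin, Fzd7 lost its call with arrays centred (0.37, adjusted p = 0.0886) and kept it after quantile normalisation (0.64, adjusted p = 0.00171). Fzd9 lost it centred (0.21, adjusted p = 0.191) and after quantile normalisation (0.20, adjusted p = 0.229). Fzd10 was not called as deposited, with -0.32 in Norrin and -0.41 in wild type, and was called lower in both genotypes under the other 2 scalings, between -0.57 and -0.71. Its second, dim probe set (mean 4.53) was 0.79 higher in Norrin and 1.04 higher in wild type at E10.5 as deposited, so no direction is given for Fzd10.

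**Figure D4:**
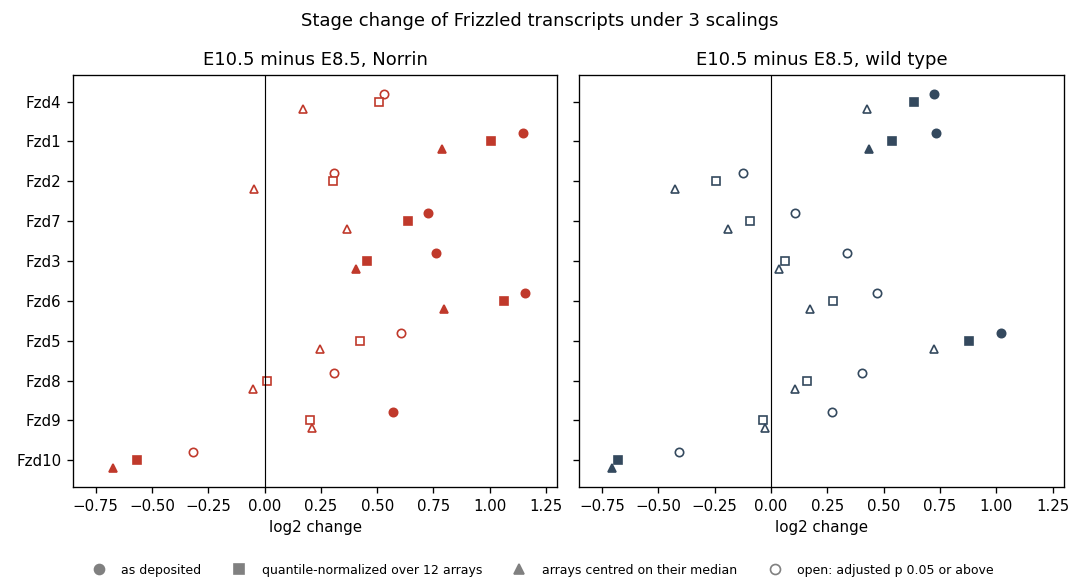
E10.5 minus E8.5 log2 difference for each Frizzled gene in Norrin and in wild type under the 3 scalings; filled symbols mark an adjusted p under 0.05. Fzd1 is filled under each scaling in both genotypes, and Fzd10 only where arrays were centred or quantile-normalised together.

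How the members moved together was described over the 12 arrays after removing each stage's mean, so that the genotype difference and pool-to-pool shifts are both in it. Pearson's r was 0.83 for Fzd3 with Fzd7, 0.79 for Fzd6 with Fzd7 and 0.83 for Fzd9 with Fzd10, while Fzd6 with Fzd8 gave -0.80 and Fzd2 with Fzd5 -0.74. Likeness was ranked by the same measure among genes at or above the median gene's mean level. Riken clones, predicted genes and similar unnamed entries were passed over. Those most like Fzd6 were Kdsr (r = 0.974), a ceramide synthesis enzyme, Cyld (0.952), a deubiquitinase, and Pkdcc (0.948), a secreted kinase. Those most like Fzd7 were Mbtd1 (0.964), Dram2 (0.958) and Rmc1 (0.940), and those most like Fzd2 were Tjap1 (0.961), Loxl1 (0.958), an elastin crosslinker, and Nkain4 (0.951). Fzd4 was ranked on 1419301_at, whose low replicate 3 pools at E8.5 were not seen with its second probe set. The genes most like Fzd4 were Tmem164 (0.959), Ap4e1 (0.952) and Tmed7 (0.949). Each is among the highest 3 of the genes so ranked, over arrays that share their normalisation.

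Some other genes of the pathway were called at E10.5, where limma called 4.07% of all genes and 1.85% higher. With the replicate block within each stage it called 13.2% of all genes and 6.39% higher. Of the 5 secreted Frizzled-related proteins, which carry a Frizzled-like cysteine-rich domain and bind Wnts outside the cell, 1 rose and the median was 0.20. Frzb had 8.90, 8.29 and 8.71 in Norrin, against 6.09, 6.27 and 6.49 in wild type, a difference of 2.35 (adjusted p = 7.91e-05, limma) with no overlap, and its second probe set gave 2.20. At E8.5 Frzb was 1.02 higher (adjusted p = 0.0933), and called with the replicate block (adjusted p = 0.0302).

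Of 7 coreceptors and other Wnt receptors 1 rose, with a median of 0.07. Ror2, a receptor kinase with a Frizzled-like domain that binds Wnt5a, had 8.05, 7.92 and 8.19 in Norrin, against 7.20, 7.16 and 7.11 in wild type. Each Norrin pool was higher, by 0.90 in the mean (limma, adjusted p = 0.00487), and its second probe set gave 0.75 and was not called. The coreceptors of Norrin were not called: Lrp5 averaged 7.21 ± 0.03 in Norrin and 7.69 ± 0.08 in wild type, Lrp6 10.21 ± 0.12 in Norrin and 10.35 ± 0.16 in wild type, and Tspan12 7.90 ± 0.60 in Norrin and 7.83 ± 0.36 in wild type (SD, n = 3 each). With the replicate block Lrp5 was called lower (-0.48, adjusted p = 0.0130) and Ptk7, a polarity receptor, higher (0.53, adjusted p = 0.0160).

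Of 11 Dishevelled and planar polarity genes 1 rose, with a median of 0.14. Prickle1, a cytoplasmic polarity protein, had 9.89, 9.69 and 9.80 in Norrin, against 8.99, 8.77 and 8.77 in wild type, a difference of 0.95 (adjusted p = 0.00298). The groups were well apart, but its other probe sets, both dimmer, gave 0.01 and 0.20. Of 20 ligands 1 rose, with a median of 0.06. Wnt4 had 9.01, 9.08 and 8.69 in Norrin, against 8.19, 8.13 and 7.48 in wild type. The difference was 1.00 (adjusted p = 0.0301), and the call was lost on leaving out any E10.5 pool but wild type replicate 1, with an adjusted p of up to 0.114. Its second probe set gave 0.39 and was not called (adjusted p = 0.235 over all probe sets). Limma called 0 of 5 receptor turnover genes, with a median of 0.37. Of these, 2 had an unadjusted p under 0.05, against 14% of all genes. The largest difference among them was that of Znrf3, 0.73 (SE 0.34, adjusted p = 0.368, limma), and its second probe set gave 0.43. Smo, the class F relative of the Frizzleds, was 0.35 higher and not called (limma, adjusted p = 0.403). With the block Wnt2 (0.57, adjusted p = 0.0404) and Lgr5 (0.37, adjusted p = 0.0259) were also called higher.

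At E8.5 limma called none of the 49 pathway genes, against 0.077% of all genes. With the replicate block, beside Frzb, the polarity cadherin Celsr1 was 1.24 higher (adjusted p = 0.0173) and Wnt16 0.45 lower (adjusted p = 0.0476), under a fit that called 1.41% of all genes and 0 of 10 Frizzled genes.

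Markers of several cell types differed between the genotypes at E10.5 beside the Frizzled results. Of all genes, limma called 4.07% at that stage and 1.85% higher, and 14% had an unadjusted p under 0.05. With the replicate block within each stage 13.2% of all genes were called. In whole-tissue RNA, fewer cells of a type and less RNA per cell cannot be told apart. Of 8 mesenchyme markers 2 rose (Pdgfra and Vim), and their mean log2 level over the list was 12.52 to 12.58 in Norrin and 11.91 to 12.17 in wild type. Of 7 parietal endoderm markers 2 rose (Col4a1 and Col4a2), with list means of 11.10 to 11.21 in Norrin and 10.54 to 10.82 in wild type. Of 6 smooth muscle markers 2 rose (Acta2 and Tagln), with 9.38 to 9.55 in Norrin and 8.87 to 9.24 in wild type. In each of these lists the Norrin means lay above the wild type means, as the pools did for Fzd2, Fzd6 and Fzd7. Pools of the genotypes did not overlap for 22.9% of all genes at E10.5. The means of every pathway list of over 1 gene were apart in the same direction, so this was not particular to these cell types. Dishevelled and planar polarity genes, for example, had 8.32 to 8.42 in Norrin and 8.15 to 8.24 in wild type. The means were also apart for 3 lists named after tissue outside the yolk sac. Whether their genes are particular to that tissue was not tested. At E10.5 Dcn of the decidua list averaged 11.59 in Norrin and 11.05 in wild type. Hand1 of the trophoblast list averaged 9.68 in Norrin and 9.53 in wild type. Decidua had 8.08 to 8.74 in Norrin and 7.61 to 7.85 in wild type. Trophoblast had 7.37 to 8.74 in Norrin and 6.82 to 7.31 in wild type. Embryo neural genes had 6.35 to 6.40 in Norrin and 6.20 to 6.30 in wild type. The median deviations from the stage's wild type mean, however, overlapped for some lists. For embryo neural genes they were -0.098 to 0.019 in Norrin and -0.01 to 0.024 in wild type. For trophoblast they were -0.017 to 0.874 in Norrin and -0.221 to 0.146 in wild type. For smooth muscle they were 0.137 to 0.404 in Norrin and -0.102 to 0.14 in wild type. Those of mesenchyme, parietal endoderm and decidua did not overlap.

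Of 7 erythroid markers 6 fell, with list means of 10.79 to 10.84 in Norrin and 11.50 to 12.53 in wild type, and of 7 visceral endoderm markers 2 fell (Apoa1 and Hnf4a), with 13.20 to 13.32 in Norrin and 13.56 to 13.72 in wild type. Limma called 0 of 8 endothelial markers, none with an unadjusted p under 0.05, and their list means overlapped, at 7.99 to 8.49 in Norrin and 7.99 to 8.47 in wild type. Called markers also numbered 0 of 6 for macrophage (0 at an unadjusted p under 0.05) and, with 1 each at an unadjusted p under 0.05, 0 of 6 for trophoblast, 0 of 6 for decidua and 0 of 8 for embryo neural genes. With the replicate block within each stage, further markers were called at E10.5. They were Cldn5 among the endothelial markers (0.45, adjusted p = 0.0272), Postn of the mesenchyme (0.51, adjusted p = 0.0393), Lama1, Lamb1 and Sparc of the parietal endoderm (0.89, 0.79 and 0.45), Dcn and Bmp2 of the decidua (0.54 and 1.11) and Sox2 of the neural list (0.83), all higher. Apob of the visceral endoderm was called lower (-0.74, adjusted p = 0.000898). At E8.5, where limma without the block called no marker, the block called Pdgfra, Postn and Bmp2 higher and Afp and Apob lower. That fit called 1.41% of all genes at E8.5. The trophoblast list was highest in Norrin replicate 2 at both stages, where its median deviation from the stage's wild type mean was 0.87 at E10.5 and 0.92 at E8.5. The part of these cell types in the Frizzled differences was not tested.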

How the data were processed

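Affymetrix whole-genome mouse arrays, 12 in all, measured pooled yolk sac RNA (Trizol and RNeasy, biotin label, per the labels). The authors deposited log2 values. RMA, which corrects background, quantile-normalises and summarises probes, is the tool listed in the submitters' processing notes, without a version. Depth does not apply to arrays: the number of arrays limits the precision.

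Of 45101 probe sets, 64 were controls and 932 had several genes; 34945 had one gene, and 9010 genes had over 1 probe set. A gene was read from its probe set with the highest mean over 12 arrays. Group means of 4 groups were fitted with limma 3.58.1 in R 4.3.3 (lmFit, contrasts, eBayes; 8 residual and 4.17 prior degrees of freedom; median SE of a Norrin effect 0.16) for 5 contrasts, two-sided, with Benjamini-Hochberg over 18193 genes. The fit was also run on simulated data with noise independent between arrays. That run does not cover structure shared between pools. With 3 against 3, an exact permutation p cannot fall below 0.1, so no per-gene permutation test is given.

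The members and lists were chosen with earlier results of these data known. Named were all Frizzled genes, genes of the pathway lists past the threshold in a Norrin contrast, coreceptors of Norrin, and the 3 genes most like Fzd4 and each called member. The replicate block treats same-numbered pools of a stage as pairs. The sample titles number the replicates but do not state such pairs, so the pairing was inferred from these arrays. In the E8.5 arrays, deviations from the group means correlated between same-numbered pools at 0.73, 0.32 and 0.73. Different-numbered pools there lay between -0.721 and 0.296. In the E10.5 arrays, same-numbered pools had 0.51, 0.21 and 0.22, and different-numbered pools lay between -0.347 and 0.156. Calls made only with the block rest on this inferred pairing. Alternatives were the replicate block, other probe set rules, other scalings, a level filter, array weights, a variance trend, one stage alone and leaving out each pool. Positions and promoters came from RefSeq tables of GRCm38.p6.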

Additional observations from a re-analysis of the deposited data

Results flagged for a closer look

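The Norrin effect on Fzd7 was larger at E10.5 than at E8.5 by 0.62 on the log2 scale. It was listed because the test of the difference passed with the replicate block within each stage (adjusted p = 0.0455) and not without it (adjusted p = 0.454). All 3 same-numbered pairs had Norrin higher at both stages. The cause was not tested.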

How the results depend on the processing

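The 3 Frizzled calls at E10.5 were lost only on leaving out single pools, among the alternatives run. Over the 10 Frizzled genes, array weights gave counts of calls of 4 at E8.5, 3 for the difference between the Norrin effects, 8 between stages in wild type and 8 in Norrin; the cause was not tested. The replicate block within each stage gave 1 for the difference between the effects. Between stages, taking the probe set with the largest interquartile range gave 7 in wild type and 9 in Norrin, the mean of all probe sets 8 in Norrin, and genes at or above the median level alone 3 in Norrin, where fewer genes were tested. Leaving out single pools gave 1 to 3 at E10.5 and 2 to 5 between stages in wild type. Over all genes, calls at E8.5 numbered 14, but 257 with the block within each stage, 5 with the block across both stages, 5147 with array weights and 0 with the 6 arrays of the stage alone (951 at an unadjusted p under 0.05); at E10.5 they numbered 741, against 2400 with the block within each stage, 2316 with array weights and 472 among genes at or above the median level. For the difference between the effects they numbered 17, against 376 with the block within each stage, 2728 with array weights, 37 with the mean of all probe sets, 29 after quantile normalisation and 3 among genes at or above the median level. Between stages they numbered 6895 in Norrin and 5915 in wild type, against 11639 and 10797 with array weights and 2641 and 1918 among genes at or above the median level. Leaving out single pools gave 1 to 20 at E8.5, 353 to 894 at E10.5 and 5 to 36 for the difference. Beyond the calls named in the text, the block changed no Frizzled call. It could not be fitted for the stage comparisons, since each block lies within a stage.

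The directions that turned included those of effects of -0.41 and -0.32 for Fzd10 between stages. Others were -0.42 for Fzd5 in the difference between the effects and 0.43 for Znrf3, a receptor turnover gene, at E8.5. At E8.5 the mean of all probe sets gave 0.013 for Fzd10 and -0.062 for Prickle1, the interquartile range rule 0.060 for Fzd3 and 0.10 for Fzd10, centring 0.012 for Lrp5, and array weights 0.053 for Fzd1, 0.17 for Lrp5 and -0.26 for Znrf3. At E10.5 the mean of all probe sets gave 0.067 for Fzd4 and -0.066 for Fzd10, and the interquartile range rule 0.20 for Fzd4 and -0.15 for Fzd10. Centring, quantile normalisation and array weights gave -0.017, -0.011 and -0.0095 for Fzd9 and -0.010, -0.021 and -0.025 for Fzd10. For the difference between the effects, Fzd10 had -0.079 by the mean and -0.25 by the interquartile range rule, and Fzd5 0.21 with array weights. Between stages in wild type, the mean and the interquartile range rule gave 0.13 and 0.68 for Fzd2 and 0.32 and 1.04 for Fzd10; centring and quantile normalisation gave -0.19 and -0.094 for Fzd7 and -0.027 and -0.035 for Fzd9; array weights gave 0.033 for Fzd2. In Norrin, Fzd10 had 0.24 by the mean and 0.79 by the interquartile range rule, and centring gave -0.048 for Fzd2 and -0.052 for Fzd8. On leaving out single pools, effects at E8.5 ran over -0.50 to 0.070 (Fzd5), -0.13 to 0.015 (Fzd3), -0.15 to 0.023 (Fzd1), -0.13 to 0.35 (Fzd4), -0.25 to 0.056 (Fzd10), -0.12 to 0.13 (Lrp5) and -0.083 to 0.33 (Wnt4); at E10.5 over -0.043 to 0.045 (Fzd9), -0.054 to 0.085 (Fzd10) and -0.17 to 0.022 (Fzd4); for the difference over -0.41 to 0.060 (Fzd4), -0.042 to 0.27 (Fzd10) and -0.27 to 0.092 (Fzd8); and for wild type stages over -0.0043 to 0.24 (Fzd7).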
